A study of Caenorhabditis elegans with 245 samples.

Results

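The vacuolar ATPase (V-ATPase) and nuclear pore genes of Caenorhabditis elegans were taken by name: every gene called vha- or npp- in the mRNA and small RNA tables. There were 45 such genes, 20 V-ATPase genes and 25 nuclear pore genes, of 47639 gene rows in the series. The name alone decided which genes entered, although earlier results of these data were known when the 2 sets were chosen. The nuclear pore genes fill 26 rows, because npp-13 is listed as 2 gene models. The 2 gene sets are described side by side and share no subunit.

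The study asked whether RNST-2, an RNase T2 that governs the length and amount of tRNA-derived RNAs (tDRs), alters what sperm carry and what offspring of mutant fathers express. It holds 245 samples in 22 groups. All animals carry fog-2, whose XX animals make no sperm of their own and therefore are females. Adults were virgin F1 animals, pooled and extracted whole 24 hours after the L4 larval stage at 20 °C, with 3 samples each of rnst-2-sired females, control-sired females, rnst-2-sired males and control-sired males. Offspring of mutant fathers are themselves heterozygous, rnst-2(pen4)/+;fog-2 in adults and rnst-2(pen1)/+;fog-2 in embryos, so the effect of the father and that of the offspring's own allele cannot be told apart. The allele pen1 is a deletion (del), whereas pen4 is a catalytic mutant (cat) whose protein also carries a GFP and FLAG tag. The labels give the control adults as fog-2, whereas the column names of their table point to a catalytic heterozygous father. They are therefore called control-sired here, with their fathers' genotype unsettled.

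Single embryos were sequenced as 26 rnst-2-sired and 20 WT-sired (fog-2) embryos at 8 cells, and as 25 rnst-2-sired and 30 WT-sired embryos at 2 cells. In a second experiment all embryos were rnst-2(pen1)/+;fog-2. Their mothers' germlines had received oligonucleotides against the tDRs Gly-GCC and Glu-CTC with GFP reporter RNA (anti-tDR), or the reporter RNA alone (GFP), and embryos with GFP were chosen. This gave 20 anti-tDR and 18 GFP embryos at 8 cells, and 23 anti-tDR and 26 GFP embryos at 2 cells. Per the study's methods the embryos of each experiment came from a few independent matings on separate days, with several embryos of a group taken on each day. The day is not given per sample, so every fit treats each embryo as independent, and p-values of embryo comparisons are too small where embryos of 1 day deviate together. Small RNAs were counted in 4 WT sperm and 4 WT male libraries, 6 del/del and 5 del/+ males, 6 cat/cat and 5 cat/+ males, 4 cat/cat sperm and 3 further cat/cat male libraries, and 4 del/del and 4 del/+ females. Heterozygotes carried the balancer tmc16. Nothing in the labels says that replicates were separate cultures, so p-values measure only the spread between these samples.

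The V-ATPase is a rotary proton pump on lysosomes and other acidic membranes. Its V1 sector, in the cytoplasm, hydrolyses ATP and turns a rotor, and its V0 sector, in the membrane, carries protons through the a subunit and a ring of c subunits. The nuclear pore complex is the channel between nucleus and cytoplasm. Y complexes form its outer rings, an inner ring lines it, FG-repeat proteins fill the central channel, and transmembrane proteins, cytoplasmic filaments and a nuclear basket complete it. In C. elegans the pump is well known from the intestine, excretory cell and epidermis, and the pore is assembled anew in each early embryonic division from maternal stores.

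mRNA was given as TPM, transcripts scaled by length and by the library's total, which allows levels of different genes to be compared. Between 14081 and 16998 genes were above 0 TPM in adults, 3499 and 12703 in embryos of the sire experiment, and 3163 and 10688 in injected embryos. Small RNA libraries held between 4976236 and 51191372 counts. rnst-2 itself was at 12.88 to 15.14 TPM in rnst-2-sired females, against 18.14 to 21.13 TPM in control-sired females. In males it was at 21.02 to 22.32 TPM in rnst-2-sired and 25.81 to 44.29 TPM in control-sired samples. Each of the heterozygous adult groups was thus below its control without overlap. In embryos rnst-2 had group medians of 0 to 4.715 TPM, and in del/del males its sense fragments numbered 2 to 15, against 0 to 32 in del/+ males, so neither checks the labels. Sperm marker genes (6 genes, among them msp-19 and gsp-3) summed to 0.05 to 0.28 TPM in rnst-2-sired and 0 to 0.68 TPM in control-sired females, against 16398.6 to 19357.2 TPM in rnst-2-sired and 16046 to 17329.6 TPM in control-sired males.

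Levels of the pump's genes in adults ran over a wide range. vha-2, a gene for the proton-carrying c subunit of V0, had the highest mean TPM of the V-ATPase genes in each adult group. It was at 510.74, 559.92 and 571.78 TPM in rnst-2-sired females, 433.23, 561.46 and 542.26 TPM in control-sired females, 321.21, 360.81 and 307.26 TPM in rnst-2-sired males and 304.18, 371.4 and 391.75 TPM in control-sired males. The lowest female levels belonged to vha-5, one of the genes for the a subunit, with means of 13.3 ± 2.69 TPM in rnst-2-sired and 9.43 ± 1.77 TPM in control-sired females (SD, n = 3 each). Between these ends, vha-9 (subunit F), vha-1 (c) and vha-10 (G) followed vha-2 in both female groups. Among nuclear pore genes, npp-9, the homologue of the cytoplasmic filament protein RanBP2, was the highest in females, with 118 ± 16.1 TPM in rnst-2-sired and 141 ± 35.1 TPM in control-sired samples. In males it was npp-20, a Y complex gene (Sec13), with 38.1 ± 3.06 TPM in rnst-2-sired and 40.9 ± 4.39 TPM in control-sired samples. npp-26 and the second npp-13 model were at or near 0 TPM in adults and were not tested.

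Females and males differed in the nuclear pore as a group and in the pump gene by gene. Of 24 nuclear pore genes that passed the filter of a mean of 5 TPM, 24 were higher in females than in males among rnst-2-sired adults and 23 among control-sired adults, by adjusted p under 0.05 in limma. Over all genes tested, 61.8% were higher and 23% lower in females of the rnst-2-sired comparison, and 57.7% higher and 25.3% lower in the control-sired comparison (84.8% and 83.0% in either direction). The median log2 fold change of the nuclear pore genes was 2.19 in rnst-2-sired adults beside 1.11 over all genes, and 1.84 beside 0.88 in control-sired adults. Of 20 V-ATPase genes, 14 were higher and 0 lower in rnst-2-sired females and 9 higher and 1 lower in control-sired females, with medians of 0.51 and 0.32, but under median-of-ratios scaling, which centres the ratios of all genes, 2 were higher and 13 lower in rnst-2-sired and 1 higher and 12 lower in control-sired females. That scaling moved the median of all genes to -0.08 in rnst-2-sired and -0.07 in control-sired adults. Over all genes, 3144 were then higher and 3628 lower of 8642 in rnst-2-sired females. In control-sired females 2890 were higher and 3383 lower of 8456. The nuclear pore kept its direction as a group, with 20 higher and 0 lower in rnst-2-sired and 21 higher and 1 lower in control-sired females.

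**Figure D1:**
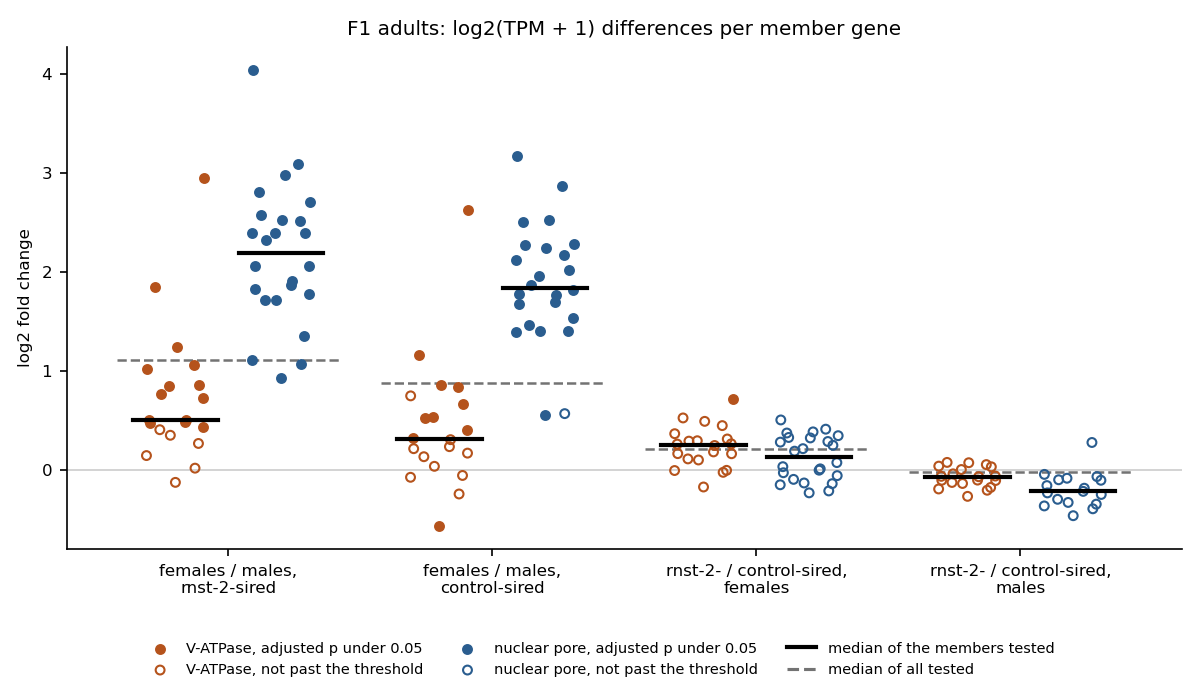
Log2 fold changes of V-ATPase and nuclear pore genes in F1 adults, each point 1 gene on the log2(TPM + 1) scale, filled where the adjusted p is under 0.05, with the median of the members and of all genes as lines. In both comparisons of females with males the nuclear pore medians (2.19 in rnst-2-sired and 1.84 in control-sired adults) lie above those of all genes (1.11 and 0.88) and the V-ATPase medians (0.51 and 0.32) below them; under median-of-ratios scaling the V-ATPase medians turn negative, at -0.64 and -0.59.

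Whole females hold oocytes and whole males hold sperm and spermatocytes. Oocyte markers (6 genes) summed to 1450.42 to 1585.08 TPM in rnst-2-sired and 1363.44 to 1794.4 TPM in control-sired females, against 32.01 to 45.71 TPM in rnst-2-sired and 44.31 to 63.26 TPM in control-sired males. Intestine markers (5 genes) did not move together. They summed to 2583.4 to 4089.19 TPM in rnst-2-sired and 3143.43 to 5338.33 TPM in control-sired females, against 1252.4 to 1473.58 and 1466.63 to 2266.64 TPM in the males of each, and the higher female sums came from the yolk protein genes vit-2 and vit-6. vit-2 was at 1050.25 to 1681.19 TPM in rnst-2-sired and 1242.3 to 2387.47 TPM in control-sired females, against 2.83 to 10.19 TPM in rnst-2-sired and 2.57 to 4.44 TPM in control-sired males. asp-1 had the opposite order, at 273.06 to 520.23 TPM in rnst-2-sired and 475.18 to 644.62 TPM in control-sired females, against 1227.95 to 1453.02 TPM in rnst-2-sired and 1446.8 to 2240.18 TPM in control-sired males. elt-2, the intestinal GATA factor, was lower in females too, at 1.07 to 3.07 TPM in rnst-2-sired and 0.65 to 2.7 TPM in control-sired females, against 3.39 to 4.55 TPM in rnst-2-sired and 3.01 to 5.02 TPM in control-sired males. All 6 oocyte and 5 intestine genes were above 0 TPM in females. Their part in the sex differences was not tested, and in whole animals fewer cells of a type and less RNA per cell cannot be told apart.

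All roles within the pore took part. In both comparisons all 8 Y complex genes, 4 inner ring genes, 3 central channel genes, 3 basket genes and 3 tested genes of the cytoplasmic side were higher in females, although under median-of-ratios scaling npp-20 (Y complex) in both and npp-21 (basket) in rnst-2-sired adults lost that direction. Of 3 transmembrane genes, 3 were higher in rnst-2-sired and 2 in control-sired females, and the exception was npp-25 (TMEM33 homologue). The Y complex gene npp-18, the homologue of Seh1, was at 126.09, 112.8 and 108.92 TPM in rnst-2-sired females, against 15.8, 16.11 and 15.1 TPM in rnst-2-sired males. In control-sired adults it was at 93.64, 99.23 and 105.66 TPM in females, against 16.79, 14.14 and 18.65 TPM in males. Every female sample was above every male sample, and the log2 fold change was 2.81 ± 0.11 (SE, adjusted p 3.55e-07, limma) in rnst-2-sired and 2.53 ± 0.14 (adjusted p 3.19e-06) in control-sired adults. npp-23 (Nup43 homologue, Y complex) showed 56.59, 68.88 and 68.37 TPM in rnst-2-sired females, against 8.18, 6.96 and 5.16 TPM in rnst-2-sired males. Control-sired females had 34.83, 50.32 and 51.86 TPM of it, against 6.85, 6.7 and 7.82 TPM in control-sired males. Its log2 fold changes were 3.09 ± 0.18 (adjusted p 2.73e-06) and 2.50 ± 0.19 (adjusted p 1.36e-05), again with no overlap between the sexes.

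The transmembrane gene npp-22, the NDC1 homologue that anchors the pore in the envelope, had the highest fold change of the nuclear pore genes. It was at 64.89, 76.56 and 81.84 TPM in rnst-2-sired females, against 4.12, 4.31 and 2.47 TPM in rnst-2-sired males. In control-sired adults the values were 43.28, 64.49 and 64.31 TPM in females, against 4.07, 5.13 and 7.35 TPM in males. On the log2(TPM + 1) scale, which understates the change of low genes, the difference was 4.04 ± 0.20 (adjusted p 1.16e-06) in rnst-2-sired and 3.17 ± 0.24 (adjusted p 1.68e-05) in control-sired adults. The other end of the pore's range was npp-20, at 74.99, 72.13 and 73.84 TPM in rnst-2-sired females, against 39.44, 40.3 and 34.63 TPM in rnst-2-sired males. Its log2 fold change of 0.94 ± 0.11 and, in control-sired adults, of 0.55 ± 0.13 turned to -0.21 and -0.34 under median-of-ratios scaling. npp-20 also encodes a part of the COPII coat, which works outside the pore. npp-25 had 30.3, 34.29 and 35.1 TPM in rnst-2-sired females, against 15.65, 16.92 and 12.27 TPM in rnst-2-sired males (1.11 ± 0.15, adjusted p 2.75e-04). In control-sired adults it was at 20.16, 27.9 and 32.13 TPM in females, against 10.03, 20.77 and 24.73 TPM in males, where the groups overlapped.

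**Figure D2:**
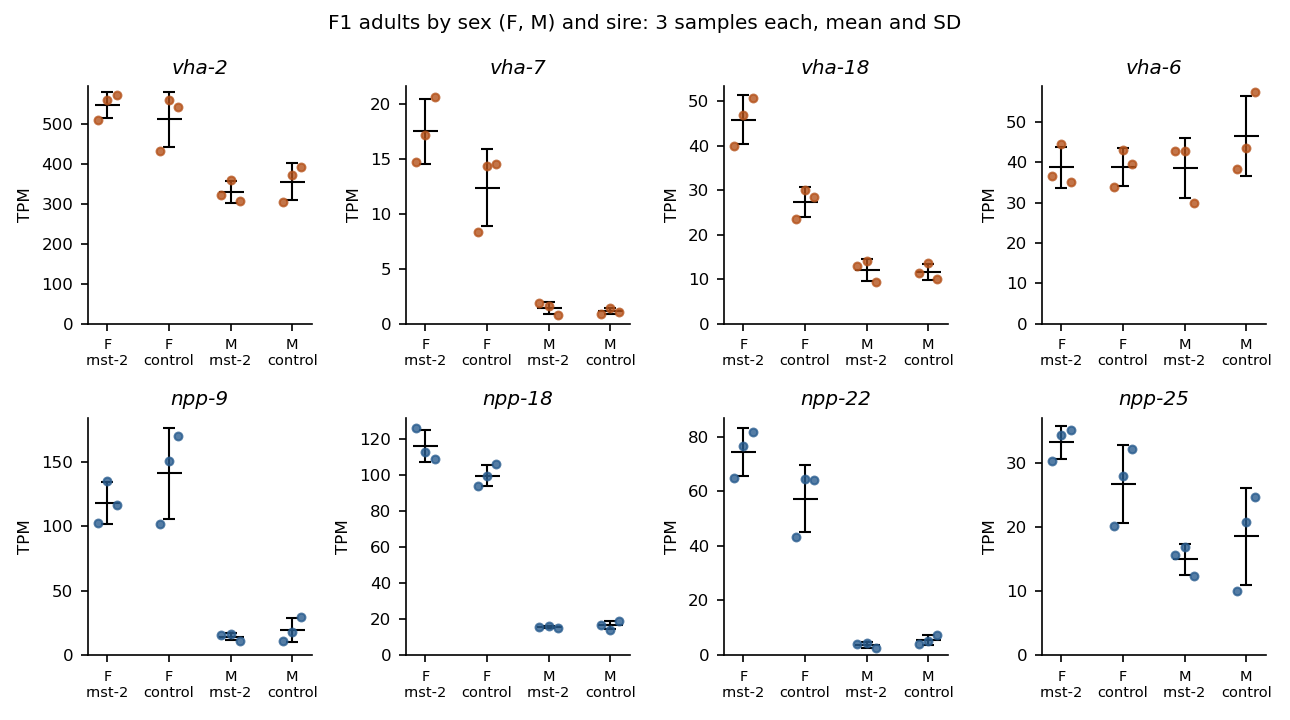
TPM of single V-ATPase and nuclear pore genes in F1 adults, each point 1 sample and each bar the group mean, for the 4 groups of 3 samples. npp-22 and npp-18 lie apart between the sexes in every sample, and vha-7 reaches 20.62 TPM in females and 1.87 TPM in males.

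Within the pump, paralogous genes for 1 subunit were distributed differently. The a subunit, through which protons leave the rotor, is encoded by vha-5, vha-6 and vha-7 (and unc-32 outside the vha- names). vha-7 was at 14.72, 17.12 and 20.62 TPM in rnst-2-sired females, against 1.87, 1.61 and 0.78 TPM in rnst-2-sired males. In control-sired adults it was at 8.33, 14.3 and 14.47 TPM in females, against 0.85, 1.44 and 1.08 TPM in males. The sexes were apart in every sample, and vha-7 was higher in females by 2.95 ± 0.23 (adjusted p 1.48e-05) and 2.63 ± 0.24 (adjusted p 4.27e-05), and by 2.04 and 1.97 under median-of-ratios scaling. By contrast vha-5 was at 7.65, 11.18 and 9.45 TPM in control-sired females, against 12.55, 14.15 and 16.43 TPM in control-sired males, and was lower in these females under either scaling (-0.57 ± 0.18, adjusted p 0.0208, and -1.41). That call ended when female replicate 1 or 3 or male replicate 2 or 3 was left out (-0.58 to -0.44, adjusted p 0.0524 to 0.0622). In rnst-2-sired adults vha-5 overlapped between females, at 11.03, 16.25 and 12.53 TPM, and males, at 15.71, 19.4 and 9.64 TPM. vha-6, the intestinal a subunit gene, overlapped between the sexes too, with 36.51, 44.63 and 35.11 TPM in rnst-2-sired females and 42.76, 42.78 and 29.92 TPM in rnst-2-sired males. Since vha-6 and vha-7 differed in where they were detected, the 250 bases before each gene start are shown, from RefSeq (WBcel235) and 5′ to 3′ on the gene's strand, with GATAA, the core that intestinal GATA factors bind, in capitals where it was found on either strand. vha-6 lies on chromosome II (11435210 to 11438452, minus strand) and vha-7 on chromosome IV (12640462 to 12650652, plus strand). The windows are chrII:11438453-11438702 and chrIV:12640212-12640461.
vha-6: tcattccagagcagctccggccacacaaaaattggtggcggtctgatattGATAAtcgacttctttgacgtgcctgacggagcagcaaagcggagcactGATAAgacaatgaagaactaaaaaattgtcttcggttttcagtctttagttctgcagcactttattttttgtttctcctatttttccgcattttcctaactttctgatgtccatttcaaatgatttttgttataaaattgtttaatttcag
vha-7: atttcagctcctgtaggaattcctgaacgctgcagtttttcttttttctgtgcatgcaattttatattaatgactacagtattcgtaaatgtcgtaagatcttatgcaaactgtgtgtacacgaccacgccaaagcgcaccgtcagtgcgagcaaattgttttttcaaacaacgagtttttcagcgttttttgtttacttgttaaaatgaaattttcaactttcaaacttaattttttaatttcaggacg
The vha-6 window held 2 matches and that of vha-7 held 0. In windows from 250 bases before to 50 bases after the start, found for all 20 V-ATPase and 25 nuclear pore genes, GATAA was present in 10 (50.0%) and 15 (60%), beside 11508 (57.6%) of 19971 protein-coding genes. The E-box CACGTG, which HLH-30 (TFEB) binds at lysosomal genes, was present in 0 of 20 V-ATPase genes and in 1 of 25 nuclear pore genes (npp-24), beside 1163 of 19971 (5.82%). These letters are descriptions of the windows and not sites shown to be bound.

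The c subunit forms the proton-carrying ring and has 3 genes. vha-1 was at 321.15, 316.28 and 345.43 TPM in rnst-2-sired females, against 153.37, 155.58 and 158.33 TPM in rnst-2-sired males. Control-sired females had 250.9, 284.05 and 282.29 TPM, against 142.26, 156.83 and 150.47 TPM in control-sired males. The log2 fold changes of 1.07 ± 0.09 and 0.86 ± 0.11 for vha-1 lie near the median of all genes and turned to -0.09 and -0.05 under median-of-ratios scaling. vha-3 stood well below its paralogues and overlapped between the sexes, with 30.09, 37.73 and 33.5 TPM in rnst-2-sired females and 29.84, 34.82 and 20.45 TPM in rnst-2-sired males. vha-2 and vha-3 encode the same 161 residues, with 0 different, from coding sequences of 486 bases that are 85.2% identical and differ at 72 bases, 63 of them at the third codon position. Because short reads must tell these genes apart, coding bases 217 to 276 are shown, from RefSeq (WBcel235), with the 19 bases at which they differ in capitals. vha-2 lies on chromosome III and vha-3 on chromosome IV.
vha-2: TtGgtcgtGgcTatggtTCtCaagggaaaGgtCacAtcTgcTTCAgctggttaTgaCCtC
vha-3: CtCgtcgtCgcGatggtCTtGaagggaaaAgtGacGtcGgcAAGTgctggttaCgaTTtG
The longest identical run was 23 bases and 0 of 437 words of 50 bases were shared, so a read of that many coding bases holds at least 1 distinguishing base. vha-1 and vha-2 lie on the same strand with 400 bases between them, and vha-11 and vha-3 with 892 bases between them. vha-3 was the lower gene of its pair, beside vha-11 at 61.29, 86.41 and 77.39 TPM in rnst-2-sired females.

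In the V1 sector the H subunit, which silences V1 when the sectors come apart, has 2 genes. vha-18 was at 39.85, 46.99 and 50.71 TPM in rnst-2-sired females, against 12.97, 14.05 and 9.36 TPM in rnst-2-sired males. In control-sired adults it was at 23.5, 30.12 and 28.51 TPM in females, against 11.46, 13.57 and 10.02 TPM in males. Females were above males in every sample, by 1.85 ± 0.18 (adjusted p 4.29e-05) and 1.16 ± 0.17 (adjusted p 4.32e-04), and by 0.74 and 0.30 under median-of-ratios scaling. The X-linked vha-15 overlapped between the sexes in control-sired adults, with 41.55, 67.4 and 70.94 TPM in females and 35.66, 43.7 and 76.98 TPM in males. vha-9 (F) had 372.07, 418.36 and 420.95 TPM in rnst-2-sired females, against 175.96, 179.72 and 155.3 TPM in rnst-2-sired males, a log2 fold change of 1.24 ± 0.10 (adjusted p 2.01e-05) that shrank to 0.08 under median-of-ratios scaling. By sector, 7 of 9 V1 genes and 6 of 9 V0 genes were higher in rnst-2-sired females and 4 of 9 and 5 of 9 in control-sired females, counts that turn mostly to lower under median-of-ratios scaling, where only vha-7, vha-18 and, in rnst-2-sired adults, vha-9 kept a positive difference among the called ones.

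**Figure D3:**
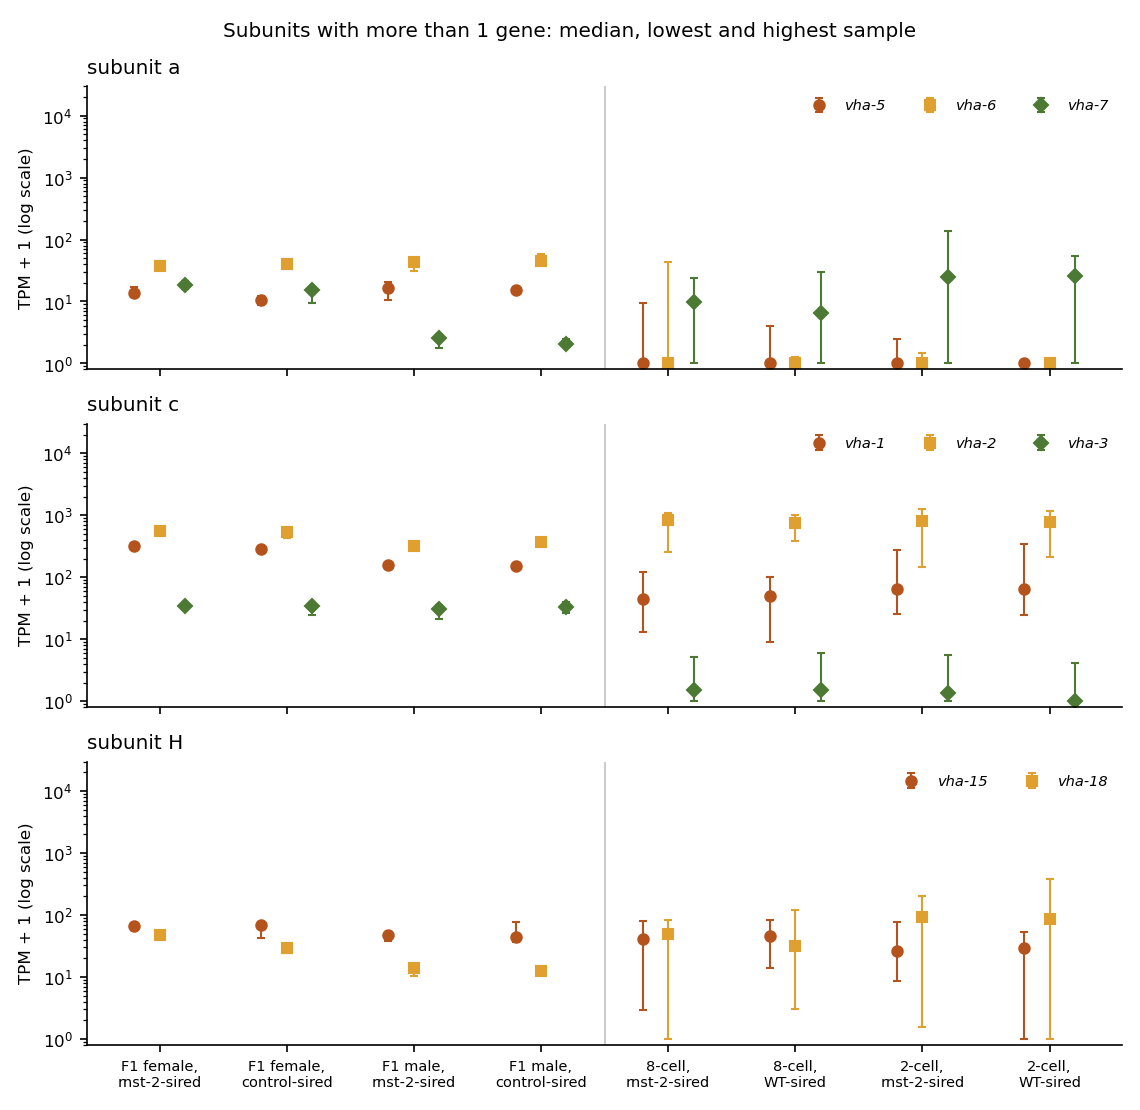
TPM + 1 (log axis) of the genes for the a, c and H subunits in F1 adults (3 samples a group) and in embryos of the sire experiment, with points at the median and bars from the lowest to the highest sample. vha-7 lies below vha-5 and vha-6 in males and is the only one of the 3 with a median above 0 TPM in embryos, where vha-2 keeps medians of 754 to 853 TPM and vha-3 of at most 0.54 TPM.

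Genes around the pump and the pore were counted in the same comparisons. Of 23 tested genes for nuclear transport and the envelope, 22 were higher in rnst-2-sired females, beside 61.8% of all genes, and 22 of 22 in control-sired females, beside 57.7%. Under median-of-ratios scaling 16 of 21 and 16 of 22 were higher, beside 3144 of 8642 and 2890 of 8456 over all genes. Among the transport and envelope genes ima-2, an importin alpha of the germline, differed by 4.04 (adjusted p 7.6e-06) in control-sired adults. Of 13 tested gene models of genes that work with the V-ATPase, where lmtr-3 has 2, 9 were higher and 3 lower in rnst-2-sired females and 9 higher and 1 lower in control-sired females, with 7 higher and 3 lower in each under median-of-ratios scaling. spe-5, a B subunit gene needed in sperm, was lower in females, at 5.85 ± 0.12 TPM against 29.9 ± 4.0 TPM in males of the control-sired adults (-2.17, adjusted p 6.7e-06). lmtr-2, a gene of the Ragulator complex, which docks TORC1 signalling on the lysosome, was higher in control-sired females (2.00, adjusted p 3.4e-06).

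The father's genotype was compared within each sex. In F1 females, 1 of 20 V-ATPase genes and 0 of 24 nuclear pore genes passed the threshold between rnst-2-sired and control-sired samples in limma, where 4.71% of all genes were higher and 0.168% lower (4.88% in either direction). At an unadjusted p under 0.05 there were 4 and 4, beside 2428 of 7725 over all genes, whose median log2 fold change was 0.22. The gene was vha-18, with the female values given above, higher by 0.72 ± 0.14 (SE, n = 3 each, adjusted p 0.0482). Its 3 rnst-2-sired samples were all above its 3 control-sired samples. With replicate numbers as a block, whose samples deviated together within each pair, vha-18 (0.72, adjusted p 0.0363), vha-17 (0.53, adjusted p 0.0470) and npp-23 (0.51, adjusted p 0.0421) passed. vha-17, the e subunit of V0, was at 201.05, 190.54 and 261.86 TPM in rnst-2-sired females, against 144.51, 153.92 and 149.64 TPM in control-sired females. When any 1 of the 6 samples was left out, 0 members were called. Over all genes, those higher then numbered 1 to 14 instead of 364, and those lower 0 to 2 instead of 13. The number of genes above 0 TPM differed between these groups, at 15750 to 15821 in rnst-2-sired and 14081 to 14550 in control-sired females, and its part in the result was not tested.

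In F1 males 0 of 19 V-ATPase genes and 0 of 17 nuclear pore genes passed, beside 0.0707% of all genes (0.0424% higher and 0.0283% lower), and 0 and 0 had an unadjusted p under 0.05. The medians were -0.07 for the V-ATPase and -0.21 for the nuclear pore, beside -0.02 over all genes. vha-7 and 8 nuclear pore genes were below the filter in males. A difference of the father's effect between the sexes was tested as an interaction, and 0 of 20 V-ATPase and 0 of 24 nuclear pore genes passed (0.0689% of all genes, 3 and 3 at an unadjusted p under 0.05). vha-9 came closest, with 0.40 ± 0.13 (adjusted p 0.242).

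In early embryos the pump and the pore differed in level by gene as they did in adults. vha-2 was again the highest V-ATPase gene, with a lowest, median and highest level of 251, 853 and 1103 TPM in rnst-2-sired and 378, 754 and 1021 TPM in WT-sired embryos at 8 cells, and of 148, 800 and 1267 TPM in rnst-2-sired and 211, 778 and 1190 TPM in WT-sired embryos at 2 cells. These ranges overlapped throughout. Of its paralogues, vha-1 had medians of 43.7 TPM in rnst-2-sired and 49.3 TPM in WT-sired embryos at 8 cells, and vha-3 had medians of 0 to 0.54 TPM over all 8 embryo groups. npp-16, the basket gene homologous to Nup50, was high at both stages, with medians of 450 to 612 TPM. The membrane gene npp-25 had medians of 0 to 3.62 TPM.

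Of the a subunit genes with a vha- name, vha-7 was the one detected in most embryos, while unc-32 averaged 46.7 ± 13.2 TPM at 8 cells and 32.2 ± 18.5 TPM at 2 cells in WT-sired embryos (SD, n = 20 and 30). It was above 0 TPM in 23 of 26 rnst-2-sired and 19 of 20 WT-sired embryos at 8 cells, with medians of 8.76 and 5.62 TPM, and in 24 of 25 rnst-2-sired and 27 of 30 WT-sired embryos at 2 cells, with medians of 23.8 and 24.8 TPM. vha-5 and vha-6 had a median of 0 TPM in every embryo group. vha-6 was above 0 TPM in 5 of 26 rnst-2-sired embryos at 8 cells, up to 42.45 TPM in embryo 20. In that embryo asp-1 was at 213.64 TPM, whereas the other 4 genes of the intestine list (vit-2, vit-6, elt-2 and ges-1) were at 0. Without that embryo no count of members changed. The intestine list otherwise had a median of 0 TPM in each embryo group. vha-3, vha-5, vha-6, npp-25 and npp-26 did not reach the filter in comparisons of stages, so 17 V-ATPase and 23 nuclear pore genes were tested.

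Between 2 and 8 cells, when maternal RNAs are cleared and the first zygotic genes start, most V-ATPase calls and all nuclear pore calls lay in opposite directions in WT-sired embryos. That did not hold with replicate numbers as a block, where most V-ATPase calls were higher at 8 cells, as given below. Of the nuclear pore genes 10 of 23 were higher and 0 lower at 8 cells, beside 25.5% higher and 9.19% lower of all genes (34.7% in either direction), with a median log2 fold change of 0.85 beside 0.37 over all genes. Of the V-ATPase genes 1 of 17 was higher and 3 lower, with a median of -0.27. Every member's values overlapped between the stages. Genes that start in early embryos (6 genes, among them end-1 and med-1) summed to a median of 909.81 TPM at 8 cells and 1.21 TPM at 2 cells in WT-sired embryos, and to 553.485 and 0.6 TPM in rnst-2-sired embryos, which sets the stages apart as labelled.

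By role, 3 of 3 central channel genes, 3 of 4 inner ring genes, 2 of 3 basket genes and 2 of 8 Y complex genes were higher at 8 cells in WT-sired embryos. npp-11 (Nup62 homologue, central channel) had a lowest, median and highest level of 46.7, 86.8 and 117 TPM at 8 cells, against 0, 54.6 and 101 TPM at 2 cells. npp-4, its FG-repeat neighbour in the channel, had 36.5, 80.1 and 111 TPM at 8 cells, against 4.55, 59.5 and 101 TPM at 2 cells. npp-8 (Nup155 homologue, inner ring) had 172, 330 and 499 TPM at 8 cells, against 8.04, 261 and 454 TPM at 2 cells. The lowest embryo at 2 cells was in each case far under the lowest embryo at 8 cells, while the highest embryos were close. The log2 fold changes were 1.39 ± 0.40 for npp-11 (adjusted p 0.00547), 0.85 ± 0.26 for npp-4 (adjusted p 0.00946) and 1.28 ± 0.39 for npp-8 (adjusted p 0.00950). They are differences of means, which low embryos move more than the medians above. These fits include 4 embryos at 2 cells and 0 at 8 cells with under 5000 genes above 0 TPM. The other 7 called genes (npp-1, npp-3, npp-5, npp-7, npp-10, npp-13 and npp-21) lay between 0.85 and 1.50.

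In the pump, 3 single genes fell by 8 cells in WT-sired embryos. vha-14, for subunit D of the rotor shaft, had 48.9, 94.8 and 169 TPM at 8 cells, against 83.8, 155 and 252 TPM at 2 cells (-0.71 ± 0.15, adjusted p 1.90e-04). vha-13 (A), which binds ATP, had 21.5, 65.9 and 175 TPM at 8 cells, against 16.3, 165 and 309 TPM at 2 cells (-0.96 ± 0.29, adjusted p 0.00963). vha-1 had 7.9, 49.3 and 101 TPM at 8 cells, against 23.2, 64.5 and 338 TPM at 2 cells (-0.68 ± 0.25, adjusted p 0.0298). Medians were lower at 8 cells for each, with wide overlap. vha-2, the highest c subunit gene, did not pass (0.08 ± 0.17, adjusted p 0.728), nor did vha-12, for subunit B of the head (-0.56 ± 0.41, adjusted p 0.295). vha-15 (H) went the other way, with 13, 45 and 81.1 TPM at 8 cells, against 0, 28.8 and 52.6 TPM at 2 cells (1.01 ± 0.31, adjusted p 0.0110). Its paralogue vha-18 had medians of 30.2 TPM at 8 cells and 84.7 TPM at 2 cells and did not pass. Without the embryos that had under 5000 genes above 0 TPM, all of them at 2 cells here, vha-1 no longer passed (-0.48).

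**Figure D4:**
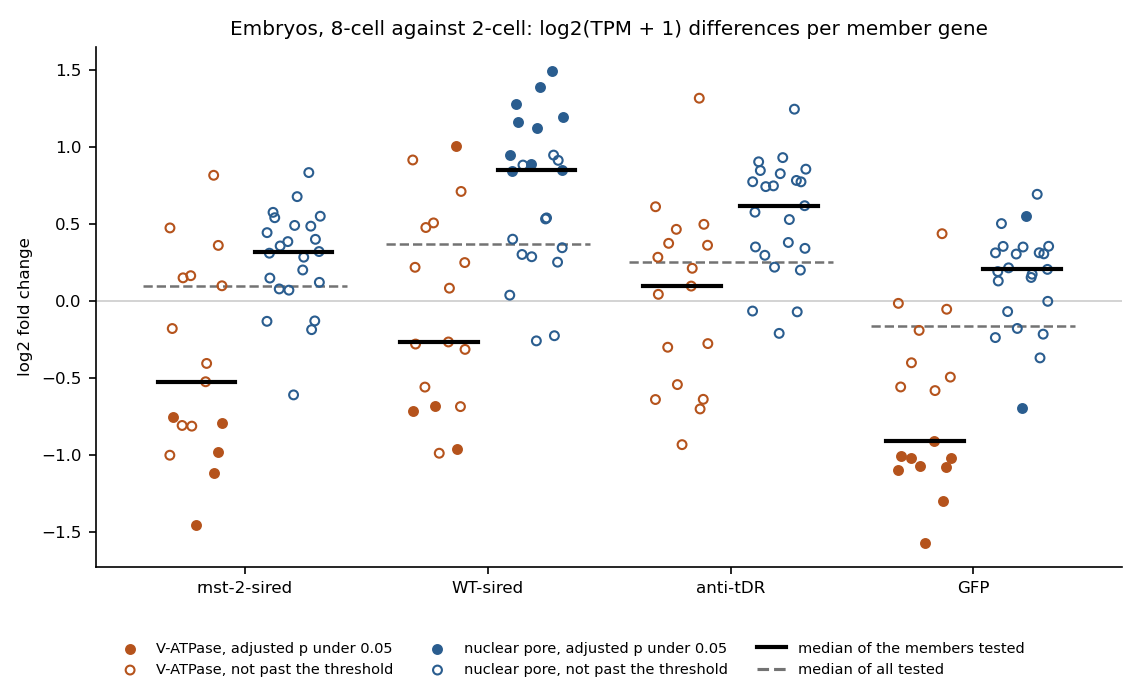
Log2 fold changes of V-ATPase and nuclear pore genes between 8-cell and 2-cell embryos, each point 1 gene, filled where the adjusted p is under 0.05, for the 4 kinds of embryo, with medians of the members and of all genes tested as lines. The V-ATPase medians lie below the median of all genes in each kind of embryo and the nuclear pore medians above it; single genes pass in WT-sired, rnst-2-sired and GFP embryos and none in anti-tDR embryos.

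In rnst-2-sired embryos 0 of 17 V-ATPase genes were higher and 5 lower at 8 cells, beside 9.88% higher and 11.4% lower of all genes (21.3% in either direction), with a median of -0.53 beside 0.10. Under median-of-ratios scaling the split was 2 higher and 4 lower. vha-14 had 7.45, 99.3 and 197 TPM at 8 cells, against 82.2, 176 and 279 TPM at 2 cells (-0.98 ± 0.21, adjusted p 1.57e-04). vha-13 had 7.67, 63.3 and 131 TPM at 8 cells, against 16.9, 154 and 291 TPM at 2 cells (-1.12 ± 0.30, adjusted p 0.00401). vha-7 had 0, 8.76 and 23.2 TPM at 8 cells, against 0, 23.8 and 137 TPM at 2 cells (-1.45 ± 0.42, adjusted p 0.00741). vha-1 (-0.76, adjusted p 0.0107) and vha-8 (subunit E, -0.80, adjusted p 0.0318) were the other 2. No nuclear pore gene passed in limma, 0 of 23, with 0 at an unadjusted p under 0.05 and a median of 0.32 beside 0.10. Whether the stage difference itself depended on the father was tested, and 0 of 17 V-ATPase and 0 of 23 nuclear pore genes passed (0.0299% of all genes, 1 and 0 at an unadjusted p under 0.05). The presence of nuclear pore calls in WT-sired embryos alone is therefore no shown difference between fathers.

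Embryos of the injection experiment were compared in the same way. In GFP embryos 9 of 17 V-ATPase genes were lower and 0 higher at 8 cells, beside 21% lower and 7.93% higher of all genes (28.9% in either direction), and the median was -0.91 beside -0.16. The split was 1 higher and 9 lower under median-of-ratios scaling. vha-13 had 33.6, 90.6 and 227 TPM at 8 cells, against 85, 247 and 317 TPM at 2 cells (-1.30 ± 0.17, adjusted p 1.27e-08). vha-7 had 0, 6.54 and 28.2 TPM at 8 cells, against 2.54, 20.7 and 31 TPM at 2 cells (-1.57 ± 0.33, adjusted p 2.07e-04). vha-11 (C), a stalk subunit, had 5.31, 16.8 and 43.3 TPM at 8 cells, against 10, 42.9 and 68.2 TPM at 2 cells (-1.02 ± 0.23, adjusted p 4.89e-04). Both sectors were among the others, with 5 of 9 V1 and 4 of 6 V0 genes lower. Of the nuclear pore genes npp-18 was higher (0.55 ± 0.21, adjusted p 0.0418) and npp-9 lower at 8 cells, with 41.6, 129 and 264 TPM against 34.2, 221 and 312 TPM at 2 cells (-0.70 ± 0.21, adjusted p 0.00817). Without the 1 GFP embryo under 5000 genes, 5 nuclear pore genes were higher and 1 lower, and under median-of-ratios scaling 7 and 1.

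In anti-tDR embryos 0 of 17 V-ATPase and 0 of 23 nuclear pore genes passed between the stages in limma, beside 8.64% higher and 3.98% lower of all genes (12.6% in either direction), with 2 and 2 at an unadjusted p under 0.05. vha-13 had 30.5, 93.2 and 151 TPM at 8 cells, against 0.43, 186 and 312 TPM at 2 cells. Without the 5 anti-tDR embryos at 2 cells with under 5000 genes above 0 TPM, 5 V-ATPase genes were lower at 8 cells, so the absence of V-ATPase calls rested on those embryos. The difference between the stage effects of the injections was tested directly, and 0 of 17 and 0 of 23 genes passed (0.0% of all genes, 2 and 1 at an unadjusted p under 0.05).

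At 2 cells, most genes tested had lower values in anti-tDR than in GFP embryos. All 17 V-ATPase genes were among them, none past the threshold, which is not read here as particular to the pump. The 17 genes were measured in the same embryos, so their directions are not independent. The median log2 fold change was -0.76, beside -0.52 over all genes and -0.44 for the nuclear pore genes. 0 of 17 V-ATPase and 0 of 23 nuclear pore genes passed in limma (0.0636% higher and 0.254% lower of all genes, 0.318% in either direction), with 11 and 4 at an unadjusted p under 0.05. Over all genes tested, 1924 of 6294 had an unadjusted p under 0.05. vha-12 (B), the second subunit of the ATP-binding head, had 0, 25.6 and 98.5 TPM in anti-tDR and 4.66, 66.2 and 111 TPM in GFP embryos (-1.64 ± 0.45, adjusted p 0.0585). vha-11 had 0, 23.9 and 70.4 TPM in anti-tDR and 10, 42.9 and 68.2 TPM in GFP embryos (-1.60 ± 0.45, adjusted p 0.0585). vha-7 had 0, 9.82 and 77.9 TPM in anti-tDR and 2.54, 20.7 and 31 TPM in GFP embryos (-1.23 ± 0.44, adjusted p 0.0822). A maternal RNA list (5 genes) also had a lower median sum in anti-tDR embryos, at 3835.35 TPM against 5353.72 TPM in GFP embryos, and the list of early embryonic genes reached 496.22 TPM in anti-tDR embryos, against 68.45 TPM in GFP embryos. Their part was not tested. Without the 5 anti-tDR embryos that had under 5000 genes above 0 TPM, the medians shrank to -0.36 for the V-ATPase and -0.11 for the nuclear pore, beside -0.17 over all genes. Then 16 of 17 V-ATPase genes still had lower values, where the median over all genes was below 0 too. 0 members passed, and 3 and 1 had an unadjusted p under 0.05, beside 583 of 6256 over all genes.

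The remaining embryo comparisons gave no member past the threshold in limma. At 8 cells, anti-tDR against GFP embryos gave 0 of 17 V-ATPase and 0 of 23 nuclear pore genes (0.0% of all genes), with 1 and 0 at an unadjusted p under 0.05, the 1 being vha-12 (-0.87 ± 0.38). Over all genes there, 239 of 6588 had an unadjusted p under 0.05. At 2 cells, rnst-2-sired against WT-sired embryos gave 0 of 17 and 0 of 23 (0.0% of all genes), with 0 and 0 unadjusted. At 8 cells, the same comparison gave 0 of 17 and 0 of 24 (0.0431% of all genes), with 0 and 2 unadjusted, beside 530 of 6958 over all genes. Those 2 were npp-13 (Nup93 homologue, inner ring), with 0, 64.8 and 159 TPM in rnst-2-sired and 51.5, 87.6 and 203 TPM in WT-sired embryos (-0.84 ± 0.37, adjusted p 0.624), and npp-5 (Nup107 homologue, Y complex; -0.65 ± 0.29, adjusted p 0.624).

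Of the other genes, 9 of 22 for nuclear transport and the envelope were higher and 4 lower at 8 cells in WT-sired embryos, beside 25.5% higher and 9.19% lower of all genes. ima-2 was lower (-1.70, adjusted p 2.3e-12), while lmn-1, the lamin, was higher (1.06, adjusted p 0.0014). ima-2 was lower in each of the 4 kinds of embryo. Of 13 tested gene models of genes that work with the V-ATPase, 3 were higher and 1 lower. These were lmp-1, a lysosomal membrane protein (2.13, adjusted p 2.3e-04), unc-32, the fourth a subunit gene (0.97, adjusted p 0.032), ppk-3, a lipid kinase of endosomes (1.22, adjusted p 0.042), and spe-5 (-0.97, adjusted p 0.046).

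Endogenous small interfering RNAs (endo-siRNAs) are made by RNA-dependent polymerases on an mRNA as template and are therefore antisense to it. They were counted per gene and not per length, so that levels are compared between groups and not between genes. In WT sperm, isolated from the males, 0 of 17 tested V-ATPase genes had more and 16 had fewer endo-siRNAs than WT whole males, in reads scaled to the library total (RPM), and 1 of 25 nuclear pore genes had more and 24 fewer (edgeR, adjusted p under 0.05). Over endo-siRNAs of all genes, 2.43% were higher and 58.8% lower in sperm (61.3% in either direction). The median log2 fold changes were -1.70 for the V-ATPase and -2.04 for the nuclear pore, beside -0.87 over all. npp-9 had 7.26, 6.65, 6.48 and 7.93 RPM in WT sperm, against 56.6, 49.7, 31.3 and 30.1 in WT males (-2.56, adjusted p 1.9e-06). npp-8 had 6.99, 6.10, 5.78 and 7.44 RPM in WT sperm, against 44.9, 31.5, 29.2 and 25.3 in WT males (-2.32, adjusted p 2.0e-06). Sperm libraries were close to each other and all below the males, whose libraries spread more.

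In the pump, vha-16 (subunit d, which joins the rotor to V1) had 6.17, 4.18, 3.75 and 5.45 RPM in WT sperm, against 29.97, 26.98, 15.80 and 15.91 in WT males (-2.18, adjusted p 1.3e-05). vha-11 had 1.63, 1.55, 1.91 and 1.94 in WT sperm, against 11.6, 8.55, 6.78 and 5.87 in WT males (-2.21, adjusted p 1.1e-05). vha-7 was also lower, with 9.89, 7.77, 7.85 and 9.83 in WT sperm, against 26.2, 23.9, 19.2 and 19.3 in WT males (-1.33, adjusted p 4.0e-05). The exception to the direction was npp-26, with 7.80, 6.89, 9.005 and 8.20 in WT sperm, against 5.66, 4.88, 4.85 and 6.33 in WT males (0.55, adjusted p 0.026). That call was lost in 5 of 8 fits that left out 1 library, namely WT sperm replicate 1, 3 or 4 or WT male replicate 2 or 3 (0.49 to 0.57, adjusted p 0.0515 to 0.0858). Only vha-15 and npp-13 had groups that overlapped among the called genes. vha-5 did not pass (0.98).

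The same comparison in the catalytic mutant, with RPM of the library without rRNA, gave 0 of 15 V-ATPase genes higher and 12 lower and 0 of 24 nuclear pore genes higher and 23 lower in cat/cat sperm than in cat/cat males, beside 2.77% higher and 70.0% lower over all (72.8% in either direction). The medians were -1.51 and -2.0, beside -1.15. vha-7 had 7.37, 4.37, 3.35 and 4.38 in cat/cat sperm, against 20.0, 20.6 and 21.4 in cat/cat males (-2.08, adjusted p 9.2e-05). npp-9 had 7.14, 5.65, 5.16 and 7.01 in cat/cat sperm, against 24.2, 37.9 and 56.4 in cat/cat males (-2.65, adjusted p 3.9e-05). The sperm of both genotypes were thus below the whole males for most members of either group.

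**Figure D5:**
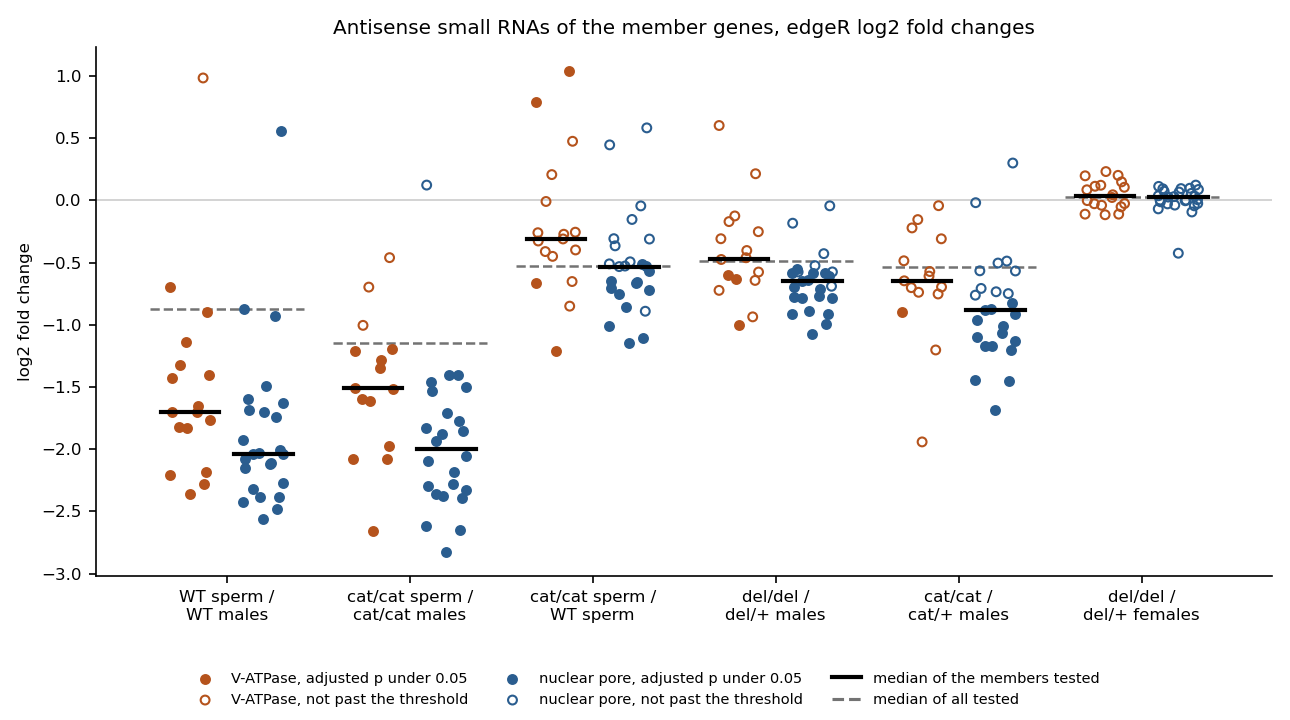
Log2 fold changes of endo-siRNAs of V-ATPase and nuclear pore genes in the small RNA comparisons, each point 1 gene, filled where edgeR's adjusted p is under 0.05, with medians of the members and of endo-siRNAs of all genes tested as lines. Sperm lie below whole males in both genotypes, with nuclear pore medians of -2.04 in WT and -2.0 in cat/cat, and no member passes in females.

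cat/cat sperm were also compared with WT sperm, the WT libraries being those of the comparison with WT males. Per the study's methods, mutant worms used for sperm had a lower minimum share of males than the WT worms. WT sperm libraries were also deeper, at 22041936 to 51191372 counts. Genotype and preparation therefore cannot be told apart here. Of the V-ATPase genes 2 of 17 were higher and 2 lower, and of the nuclear pore genes 0 of 25 higher and 13 lower, beside 7.68% higher and 39.1% lower over all (46.8% in either direction), with medians of -0.31 and -0.53 beside -0.53. vha-7 had 7.37, 4.37, 3.35 and 4.38 RPM without rRNA in cat/cat sperm, against 12.97, 10.14, 10.40 and 11.68 in WT sperm (-1.21, adjusted p 8.8e-04). vha-4 (c'') was the other lower gene, with 14.5, 11.6, 13.9 and 17.2 in cat/cat sperm, against 25.5, 19.7, 22.9 and 22.9 in WT sperm (-0.67, adjusted p 0.0064). npp-21 (Tpr homologue, basket) had 19.3, 10.02, 17.8 and 17.2 in cat/cat sperm, against 41.5, 26.7, 28.5 and 33.1 in WT sperm (-1.01, adjusted p 0.0023). Every cat/cat sperm library was below every WT sperm library for these 3 genes. vha-1 (0.79) and vha-19 (1.04) were higher with this scaling and lost that direction with the whole library as size. cat/cat sperm libraries held 11319131 to 13811572 counts, of which 3879265 to 5706814 were outside rRNA. With the whole library as size 14 V-ATPase and 23 nuclear pore genes passed, beside 181 higher and 9196 lower of 10515 endo-siRNAs of all genes. Leaving out WT sperm replicate 1 gave 8 nuclear pore genes and leaving out cat/cat sperm replicate 2 gave 7.

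In whole males, homozygotes had fewer endo-siRNA RPM than heterozygotes for part of the members with the whole library as size. Of the V-ATPase genes 3 of 16 were lower in del/del than in del/+ males and of the nuclear pore genes 18 of 25, none higher, beside 0.12% higher and 17.9% lower over all (18% in either direction), with medians of -0.47 and -0.64 beside -0.49. In cat/cat males 1 of 15 V-ATPase and 15 of 25 nuclear pore genes were lower than in cat/+ males, none higher, beside 0.128% higher and 17% lower (17.1% in either direction), with medians of -0.65 and -0.88 beside -0.54. vha-16 passed in both, with a lowest, median and highest of 21.03, 27.1 and 29.7 RPM in the 6 del/del males, against 42.0, 49.2, 39.7, 39.2 and 36.9 in the 5 del/+ males (-0.63, adjusted p 0.018). Its call in cat/cat males ended in 7 of 11 fits that left out 1 library, those without any 1 of cat/cat replicates 1 to 5 or cat/+ replicates 1 and 5 (adjusted p 0.0513 to 0.0666), and that in del/del males ended without del/+ replicate 2 (adjusted p 0.0603). npp-3 (Nup205 homologue, inner ring) had 69.2, 81.8 and 108.6 in del/del males, against 140.4, 159.3, 152.0, 187.9 and 172.1 in del/+ males (-0.92, adjusted p 0.0040). In cat/cat males npp-3 had 53.0, 64.6 and 76.2, against 171.0, 92.4, 139.9, 141.6 and 154.6 in cat/+ males (-1.13, adjusted p 0.0084). No homozygous library reached the lowest heterozygous one for these genes. With the library without rRNA as size, 0 V-ATPase and 2 nuclear pore genes passed in del and 0 and 0 in cat males. Median counts in all and outside rRNA were 7349456.5 and 5785892.5 in del/del males, against 9616751 and 9194511 in del/+ males. They were 14515492.5 and 10843105 in cat/cat males, against 9752375 and 9362060 in cat/+ males. The part of this rRNA difference in the calls was not tested. With TMM factors 0 members passed in either comparison, and with DESeq2 0 V-ATPase genes and 1 nuclear pore gene in del and 0 and 0 in cat males.

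The replicate numbers of the del males pair the samples, and with them as a block, which drops the unpaired del/del replicate 6, 5 V-ATPase and 20 nuclear pore genes were lower. Leaving out 1 library gave 1 to 4 V-ATPase and 9 to 21 nuclear pore genes in del males, the low counts without del/+ replicates 2 or 4 or del/del replicate 3. In cat males it gave 0 to 5 and 8 to 18, the low nuclear pore counts without cat/+ replicate 1 or cat/cat replicates 2, 3 or 4. In del/del females, set against del/+ females, 0 of 18 V-ATPase and 0 of 25 nuclear pore genes passed in edgeR and in DESeq2 (0.0101% over all), with 0 and 0 at an unadjusted p under 0.05 in edgeR. vha-7 had 78.9 ± 13.9 RPM without rRNA in del/del and 76.4 ± 15.9 in del/+ females (SD, n = 4 each).

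Some members had few endo-siRNAs at all. The X-linked vha-12 had 5 to 8 counts in WT sperm and 3 to 10 in WT males, against 18 to 72 in del/del and 25 to 52 in del/+ females. The X-linked vha-20, an accessory protein of the pump, had 1 to 16 counts in WT sperm and 0 to 15 in WT males, against 23 to 70 in del/del and 9 to 74 in del/+ females. vha-5 and vha-6 reached at most 27 counts in any library. Set side by side without a test, since females and males were counted in different tables, del/+ females and del/+ males had 154 ± 34.8 and 24.9 ± 4.82 RPM without rRNA of npp-1 (SD, n = 4 and 5), 218 ± 54.0 and 82.8 ± 9.43 of npp-9, and 76.4 ± 15.9 and 34.9 ± 4.52 of vha-7. The order was the other way for vha-2, with 23.7 ± 3.498 in del/+ females and 59.5 ± 11.3 in del/+ males. npp-21 was close, with 106 ± 31.3 in del/+ females and 123 ± 33.7 in del/+ males.

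The same libraries hold sense fragments of mRNAs, which are pieces of the mRNAs themselves. In WT sperm 19 of 20 V-ATPase and 21 of 23 nuclear pore genes had more of them, by edgeR's adjusted p, than in WT males, beside 64.5% higher and 5.63% lower over all (70.1% in either direction), with medians of 2.72 and 2.89 beside 1.79. In cat/cat sperm, set against cat/cat males, 20 of 20 and 22 of 22 were higher, beside 75.2% higher and 4.64% lower (79.8% in either direction), with medians of 3.16 and 3.62 beside 2.30. In cat/cat sperm, set against WT sperm, 20 of 20 and 20 of 23 were higher, beside 61.1% higher and 7.75% lower (68.8% in either direction), with medians of 1.41 and 0.96 beside 0.92. With the whole library as size, 7 V-ATPase genes were higher and none lower in cat/cat sperm than in WT sperm, and 0 nuclear pore genes were higher and 2 lower (edgeR, with 3 at an unadjusted p under 0.05), beside a median over all of -0.19. For most members of either set, sense fragments were thus higher in sperm than in whole males of the same genotype, and endo-siRNAs were lower.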

How the data were processed

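Single embryos and whole adult worms were sequenced for mRNA, and whole adults and isolated sperm for small RNAs. For mRNA the authors used STAR and RSEM. Their deposited TPM values had 1 added, which was taken off again. For small RNAs the authors used Trimmomatic, Bowtie2, STAR and featureCounts, and deposited raw counts per RNA. Tool versions are not given in the sources used here. 1 unnamed column of the female small RNA table entered no analysis, and the piRNA lines of that table were left out.

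TPM were compared by limma 3.58.1 with a trend on log2(TPM + 1), keeping genes that averaged 5 TPM or more over the samples compared. TPM keeps no depth, so the number of detected genes stands in for it. Counts were compared by edgeR 4.0.16 (quasi-likelihood test, R 4.3.3), keeping RNAs that reached 10 counts in a number of libraries equal to the smaller of the 2 groups. The library size was the total for whole males of the del and cat alleles and for WT sperm against WT males, and the total without rRNA for the cat/cat sperm and female comparisons. Benjamini-Hochberg adjustment ran over all features of a comparison, with a threshold of 0.05. TPM and RPM are shares of a library, so a change in other RNAs moves every value.

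Replicate numbers were checked as pairs through the correlation of deviations from group means. Every pair was over 0.1 for F1 females by father (3 pairs, 0.104 to 0.252) and for del males (5 pairs, 0.163 to 0.420), but not in any other comparison. That rule does not rank the comparisons. The median was 0.132 in F1 females by father, but 0.186 in control-sired females against males and 0.182 in cat males, where single pairs fell below 0.1. The labels name no pairing. No small RNA libraries of 1 group were within sampling noise of each other. The same WT sperm libraries stand in both sperm tables.

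The alternatives for TPM were a pseudocount of 0.1, rRNA genes removed, scaling by the median of ratios, a lower minimum (1 TPM) or none, and the call rule in the paper's methods (unadjusted p up to 0.01, log2 fold change beyond 1). For counts they were TMM factors, the library size not used above, DESeq2 1.42.0 and no minimum. The replicate block and samples left out singly served for both. Embryos with under 5000 genes above 0 TPM, and 8-cell rnst-2-sired embryo 20, were left out as further alternatives chosen after seeing the data. Members, gene lists and markers were chosen with earlier results of these data known. For each comparison, the rule for named genes took from each set up to 3 that rose and 3 that fell, by smallest adjusted p and with 1 direction under every scaling, the member with the highest level and the subunits with several genes (a, c and H), and from the lists of other genes up to 4 that passed; genes named for not passing were chosen after their values were seen. Promoters and coding sequences came from RefSeq (WBcel235), matched by symbol. Python 3.11.15, pandas 2.3.3, numpy 2.4.6 and matplotlib 3.10.9 served for the rest. Both fits were tested on simulated data with known changes.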

Additional observations from a re-analysis of the deposited data

Results flagged for a closer look

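1 of 50 groups of endo-siRNA values of the named genes held a sample far from the others, by Dixon's test at its 95% critical value, and chance flags about 1 in 20 groups. It was npp-14 (Nup214 homologue, cytoplasmic side) in cat/+ males, where the highest library had 158.641 RPM and the other 4 had 44.0 to 69.9 RPM. In cat/cat males npp-14 had 22.6 to 38.6 RPM. npp-14 passed the threshold between these groups (edgeR, -1.45, adjusted p 0.011) and in each of the 11 fits that left out 1 library (-1.61 to -1.06). With the library without rRNA as size, however, no nuclear pore gene passed.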

How the results depend on the processing

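Over the alternatives other than leaving out 1 sample, the count of members called stayed within 1.5 times in 228 cases and moved further in 44. Genes named by the rule, which asks for 1 direction under every scaling, kept their call in 278 cases and lost it in 45. Other genes given with values lost their direction with the scaling, as npp-20 and vha-1 did between the sexes and vha-1 and vha-19 in sperm. The V-ATPase count in F1 females by father (1) became 0 under median-of-ratios scaling, with a minimum of 1 TPM, with no filter and under the rule of the paper's methods, and 0 to 0 with any 1 sample left out. That rule, which is stricter in size and does not adjust p, gave 2 V-ATPase genes between control-sired females and males (10), 5 between rnst-2-sired females and males (14), 4 in anti-tDR against GFP embryos at 2 cells (0), 1 V-ATPase (4) and 6 nuclear pore genes (10) between the stages in WT-sired embryos, 2 V-ATPase genes between the stages in rnst-2-sired embryos (5), and 0 nuclear pore genes in GFP embryos (2). Nuclear pore genes between the stages numbered 2 in rnst-2-sired (0), 8 in GFP (2) and 1 in anti-tDR embryos (0) under median-of-ratios scaling. In GFP embryos they numbered 1 with a pseudocount of 0.1, 1 without rRNA genes, 1 with no filter and 6 without embryos under 5000 genes, which also gave 5 V-ATPase genes in anti-tDR embryos (0). In del/del against del/+ males, V-ATPase (3) and nuclear pore genes (18) numbered 0 and 0 with TMM factors, 0 and 2 with the other library size, 0 and 1 with DESeq2, and 0 and 7 with no filter. In cat/cat against cat/+ males (1 and 15) they numbered 0 and 0 with each of the first 3, and 2 and 6 with no filter. In cat/cat against WT sperm (4 and 13) the other library size gave 14 and 23, where 181 were higher and 9196 lower of 10515 endo-siRNAs of all genes. With 1 library left out the counts were 1 to 4 and 9 to 21 in del males, 0 to 5 and 8 to 18 in cat males, and for nuclear pore genes in sperm 7 to 14. The cause was not tested.

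With the replicate number as a block, which pairs samples in F1 females by father and in del males, 2 V-ATPase genes (1) and 1 nuclear pore gene (0) passed in F1 females and 5 V-ATPase genes (3) in del males. Elsewhere samples share only a number. There the block gave 1 nuclear pore gene between the stages in rnst-2-sired embryos, 0 in GFP embryos, and 0 V-ATPase and 7 nuclear pore genes in cat males, and it changed no other count by over 1.5 times. Directions did change between the stages in WT-sired embryos. With the block vha-10, vha-15, vha-16 and vha-19 were higher and vha-1 and vha-14 lower at 8 cells, and vha-13 no longer passed.

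Depth limits the single embryos most, which had 3163 to 12703 genes above 0 TPM, against 14081 to 16998 in the adults, so that a member listed at 0 in an embryo is not shown to be absent. rRNA genes took 0.814% to 51.9% of TPM in embryos and were no term of the fits. Male genotype calls of endo-siRNAs depend on the library size used. Counts under about 10, as for vha-12 in sperm, allow no comparison, and no p-value covers more than the spread between these samples.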
